A study of Cucumis sativus var. sativus with 11 samples.

Results

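The skin of a young cucumber fruit carries spines, which are multicellular trichomes, and in many cultivars warts at their base. Csa3G748220 (CsGL1, also called Mict), Csa6G514870 (CsGL3), Csa4G097650 (CsTTG1) and Csa5G577350 (Tu) are the 4 regulators of these structures described here, taken by identifier from the 23248 genes counted. The names are those used in the cucumber literature for these identifiers; the files do not pair identifiers with names. No sequence is shown, because the reference gene table matched 0 of the identifiers.

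Trichomes arise from single epidermal cells that are set apart by transcription factors and then divide and elongate. In Arabidopsis, TTG1 joins MYB and bHLH proteins in a complex that turns on an HD-Zip IV gene in the future trichome cell. In cucumber, mutants have placed HD-Zip proteins, a WD-repeat protein and a C2H2 zinc finger protein on the path that makes fruit spines and warts.

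RNA was sequenced from 11 individual ovaries of Elem Female, a gynoecious cucumber line that does not set fruit without pollination, grown in a net-house. Inhibited ovaries (n = 2) were pollinated while older fruits were present on the plant and were taken 1 day later. Pollinated ovaries (n = 3) were taken 1 day after pollination with pollen of a pollinator genotype, without that condition in the label. Unpollinated ovaries (n = 3) were taken 1 day after anthesis without pollen, and anthesis ovaries (n = 3) on the day the flower opened. Whole ovary tissue was used, so a change in the number of epidermal or trichome cells and a change in RNA per cell cannot be told apart. The labelled tissue was not checked against marker genes, since no identifier could be matched to a name.

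The libraries held 18158218 to 26456643 reads assigned to genes, and 10.8 to 24.8% of the reads of a library were assigned to no single gene. That share was highest in inhibited replicate 2 (24.8%), pollinated replicates 1 and 3 (21.1 and 20.5%) and unpollinated replicate 3 (16.8%), and ran from 10.8 to 13.3% in the other 7. Inhibited replicates 1 and 2 and unpollinated replicates 2 and 3 carried 1 form of the second index sequence, and the other 7 libraries another form. Anthesis replicate 3 was the only library from lane 2, the others being from lane 3. Replicates are individual ovaries, and whether they came from separate plants is not given in the sources used here. The p-values set differences between groups against the spread between these ovaries, and may not extend to other plants.

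CsGL3 was called in 3 of the 6 comparisons made between groups: it was lowest in ovaries left without pollen and at the highest mean in inhibited ovaries. CsGL1 had few reads and spread widely within the groups after anthesis. Its spread as estimated by edgeR was near that fitted to genes of its level. CsTTG1 varied least between ovaries of the 3 genes with reads. Tu had no read in any ovary. Of the 4 genes, 3 passed the filter on low counts. A single edgeR quasi-likelihood fit to all 18679 genes past that filter gave the tests, with Benjamini-Hochberg adjustment over all of them and a call at an adjusted p under 0.05. Over the 4 groups at once, 1 of the 3 genes was called, CsGL3 (adjusted p = 0.00236), against 47.3% of all genes tested. CsTTG1 (adjusted p = 0.0636) and CsGL1 (adjusted p = 0.074) were not called in this edgeR test.

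**Figure D1:**
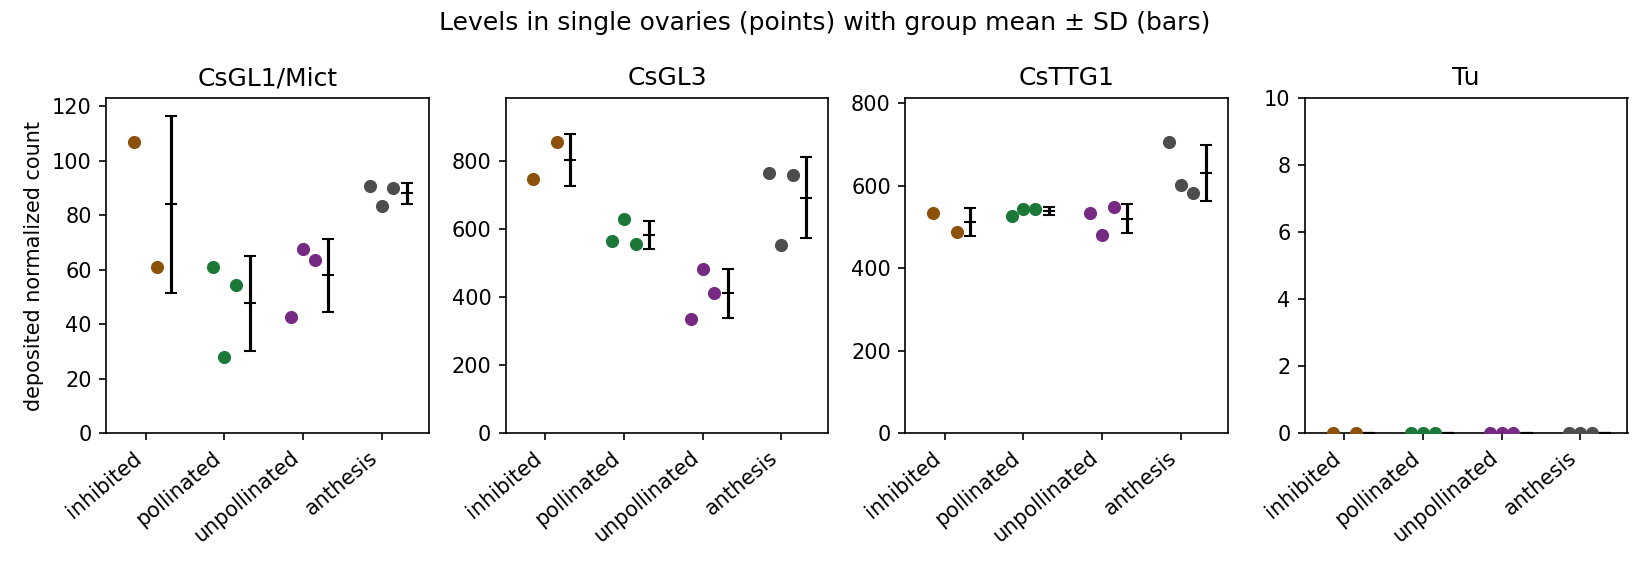
Deposited normalized counts (y axis, read counts divided by the library's size factor, from 0; each panel has its own scale) of the 4 regulators in single ovaries (points), with the group mean and SD as bars beside them. CsGL3 lies at 337 to 483 in the 3 unpollinated ovaries, below every other ovary, CsTTG1 lies at 480 to 707 throughout, and Tu is at 0 in all 11 ovaries.

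CsGL3 is an HD-Zip IV protein whose loss leaves cucumber plants without trichomes or fruit spines. Its normalized counts were 748 and 857 in inhibited ovaries, 564, 629 and 555 in pollinated ovaries, 337, 483 and 413 in unpollinated ovaries and 764, 554 and 758 in anthesis ovaries. All 3 unpollinated ovaries lay below all 8 others, as did those of 10.2% of all genes tested, while the inhibited and the anthesis ovaries overlapped. The group means were 803 ± 76.9 in inhibited (SD, n = 2), 583 ± 40.4 in pollinated, 411 ± 73.0 in unpollinated and 692 ± 119 in anthesis ovaries (SD, n = 3 each). These values rest on 316 to 851 reads per library.

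Against unpollinated ovaries, CsGL3 was higher in inhibited ovaries by a log2 fold change of 0.97 ± 0.16 SE, a 1.95-fold difference (95% interval of the log2 value 0.61 to 1.32, edgeR adjusted p = 0.00218). It was the only one of the 3 genes called in this comparison, in which 19.6% of all genes tested were called. A larger change in either direction was seen in 5.69% of the genes tested. CsGL3 was also higher in pollinated than in unpollinated ovaries, by 0.50 ± 0.15 SE on the log2 scale or 1.42-fold (0.18 to 0.82, edgeR adjusted p = 0.0222). Again it was the only one of the 3 called, beside 30.3% of all genes. That call was lost without pollinated replicate 2 (log2 fold change 0.44, edgeR adjusted p = 0.0836), without unpollinated replicate 1 (0.38, edgeR adjusted p = 0.0795) and without the 4 libraries with the highest unassigned share (0.60, edgeR adjusted p = 0.101). These comparisons share the unpollinated libraries and are not independent of each other.

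Since anthesis, CsGL3 fell in unpollinated ovaries by 0.75 ± 0.15 SE on the log2 scale, to 59.4% of the anthesis mean of normalized counts (95% interval of the log2 fold change -1.07 to -0.43, edgeR adjusted p = 0.00208). Of all genes tested, 18.1% were called lower and 17.6% were called higher in unpollinated than in anthesis ovaries. Pollinated ovaries were at 84.2% and inhibited ovaries at 116% of the anthesis mean. Neither difference from anthesis passed the threshold: the log2 fold changes were -0.25 ± 0.15 SE for pollinated (-0.56 to 0.07, edgeR adjusted p = 0.262) and 0.22 ± 0.16 SE for inhibited ovaries (-0.13 to 0.57, edgeR adjusted p = 0.42). Between inhibited and pollinated ovaries edgeR called 0 of the 3 genes and 11.3% of all genes tested. At an unadjusted edgeR p under 0.05, 2 of the 3 passed, and the share of all genes at that threshold was not counted. Inhibited ovaries lay entirely above pollinated ovaries for CsGL3, as for 21.2% of all genes tested. The difference of 0.46 ± 0.16 SE was not called (0.11 to 0.81, edgeR adjusted p = 0.0863). DESeq2 called it (adjusted p = 0.0471), where it called 2652 of 18679 genes. With only those groups in the fit, edgeR also called it (adjusted p = 0.0358), where it called 1447 of 18285 genes. CsGL1 and CsTTG1 were called by neither of these 2 analyses. In order of the mean, CsGL3 was thus highest in inhibited, then anthesis, then pollinated and then unpollinated ovaries, and of these neighbours only pollinated and unpollinated ovaries differed past the threshold.

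The second index sequence ran partly with the groups, so CsGL3 was also compared within each form of it. Among the 4 libraries of 1 form, inhibited ovaries were above unpollinated ovaries by 0.83 on the log2 scale (edgeR adjusted p = 0.0112). Among the 7 of the other form, pollinated ovaries were above the single unpollinated ovary by 0.79 (edgeR adjusted p = 0.0295), and that ovary was below the anthesis ovaries by a log2 fold change of -1.03 (edgeR adjusted p = 0.0177); here the single ovary is assumed to vary like the others. No form held both inhibited and pollinated, or both inhibited and anthesis ovaries. When the fit included the index, the log2 fold change of CsGL3 was 0.04 between inhibited and pollinated ovaries (edgeR adjusted p = 0.961) and -0.20 between inhibited and anthesis ovaries (edgeR adjusted p = 0.891). The values of inhibited against pollinated and against anthesis ovaries thus depended on whether the index was in the fit. Only the unpollinated group held both forms, so the index term was set by unpollinated replicate 1 against replicates 2 and 3. That difference was carried over to groups that held a single form. CsGL3 in the unpollinated ovaries, at 337 in replicate 1 against 483 and 413 in replicates 2 and 3, also ran with the index form. With a single ovary of 1 form in that group, the index and the ovary cannot be told apart. The comparisons within each form and the fit with the index split these ovaries in the same way and are not separate checks.

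Of all genes tested, 780, or 4.18%, had the same set of calls as CsGL3: higher in pollinated and in inhibited than in unpollinated ovaries, lower in unpollinated than in anthesis ovaries, and not called in the other 3 comparisons.

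**Figure D2:**
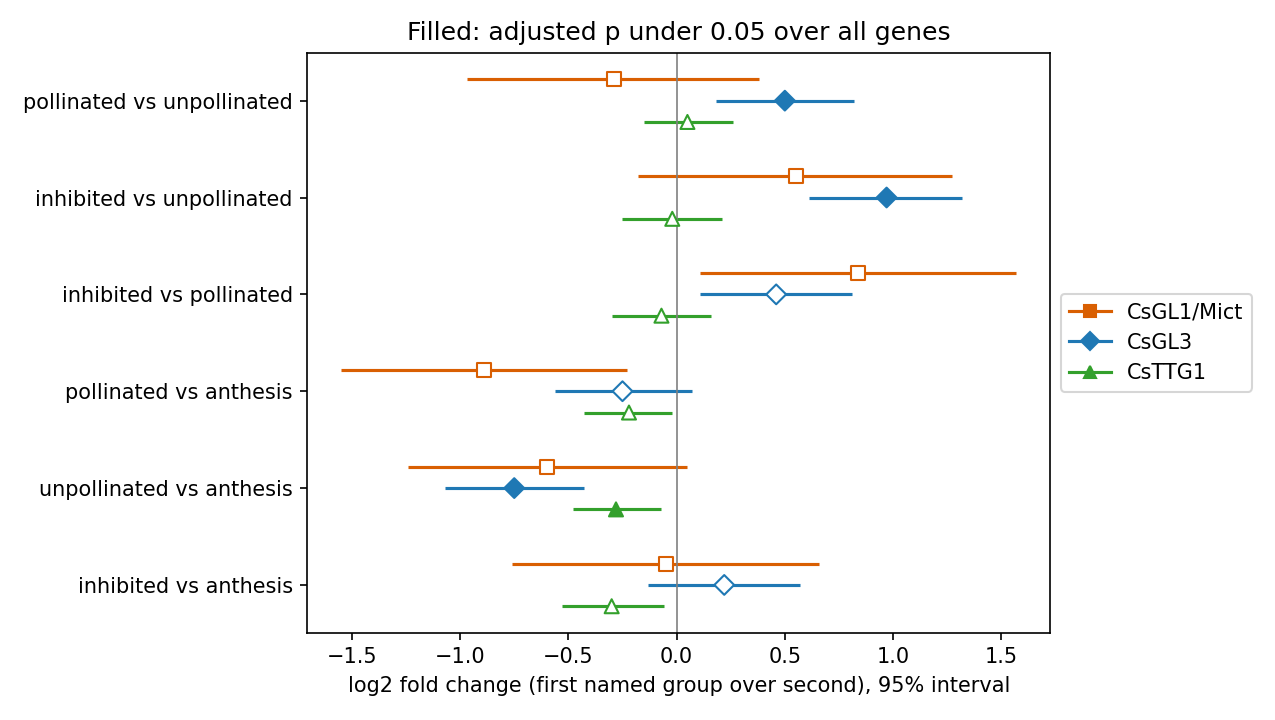
Log2 fold changes (x axis, the first named group over the second) of CsGL1, CsGL3 and CsTTG1 in the 6 comparisons (y axis), with 95% intervals as lines; filled symbols have an edgeR adjusted p under 0.05 over all 18679 genes. CsGL3 has 3 filled symbols, at 0.50, 0.97 and -0.75, CsTTG1 has 1, at -0.28, and CsGL1 has none and the widest intervals.

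CsGL1, or Mict, is an HD-Zip I protein that cucumber trichomes need to develop beyond their first stages; mutants in it have only rudimentary trichomes. Normalized counts of CsGL1 were 107 and 61.0 in inhibited ovaries, 60.9, 27.8 and 54.4 in pollinated ovaries, 42.7, 67.6 and 63.6 in unpollinated ovaries and 90.6, 83.5 and 89.9 in anthesis ovaries. The 3 anthesis ovaries lay close together and above every pollinated and unpollinated ovary, while inhibited replicate 1 was the highest of all 11 and pollinated replicate 2 the lowest. Of all genes tested, 19.5% had pollinated ovaries and 25.9% had unpollinated ovaries entirely below anthesis ovaries. The share with both was not counted. The group means were 84.0 ± 32.5 in inhibited (SD, n = 2), 47.7 ± 17.5 in pollinated, 58.0 ± 13.4 in unpollinated and 88.0 ± 3.93 in anthesis ovaries (SD, n = 3 each).

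Only 29 to 114 reads per library stand behind CsGL1, which leaves a counting error of 9.37 to 18.6% of the value. The coefficient of variation between ovaries was 38.7% in inhibited, 36.8% in pollinated, 23.1% in unpollinated and 4.46% in anthesis ovaries. In the 3 groups taken after 1 day it exceeded the counting error of each of their libraries, which ran from 9.37 to 18.6%. In anthesis ovaries it was below the counting error of 9.95 to 10.3%, so the closeness of those 3 values is no measure of the spread between ovaries. Beyond counting error, edgeR estimated a variation between ovaries of 23.7% for CsGL1, near the 22.4% fitted to genes of its level. The estimate was 13% for CsGL3 against a fitted 11.6%, and 8.85% for CsTTG1 against 11.7%. The unassigned share differed within the groups too: pollinated replicate 2, the lowest for CsGL1, had 12.4% against 21.1 and 20.5% in pollinated replicates 1 and 3, and inhibited replicate 1, the highest, had 11.8% against 24.8% in inhibited replicate 2. Its part in the scatter was not tested.

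CsGL1 was called in 0 of the 6 comparisons by edgeR and in 1 by DESeq2. At an unadjusted edgeR p under 0.05 it passed in 2 of them, inhibited against pollinated ovaries and pollinated against anthesis ovaries. The share of all genes that passed this unadjusted threshold was not counted in any comparison. In pollinated ovaries it was at 54.2% of the anthesis mean (log2 fold change -0.89 ± 0.30 SE, 95% interval -1.55 to -0.23, edgeR adjusted p = 0.0629; DESeq2 adjusted p = 0.0309). By edgeR 0 of the 3 genes were called in that comparison, against 16.4% of all genes tested, and 2 had an unadjusted p under 0.05. DESeq2 called 1 of the 3 there, and 3861 of all 18679 genes. Unpollinated ovaries had 65.8% of the anthesis mean (-0.60 ± 0.30 SE, -1.24 to 0.05, edgeR adjusted p = 0.138). Inhibited ovaries had 95.4% of it (-0.05 ± 0.33 SE, -0.76 to 0.66, edgeR adjusted p = 0.94). Between inhibited and anthesis ovaries edgeR also called 0 of the 3 genes, against 7.37% of all genes tested, and CsTTG1 had an unadjusted p under 0.05. DESeq2 called 0 of the 3 there, and 2398 of all 18679 genes. When the fit included the second index, the log2 fold change of CsGL1 was -0.68 for inhibited against anthesis ovaries (edgeR adjusted p = 0.819) and -1.05 for unpollinated against anthesis ovaries (edgeR adjusted p = 0.159).

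Among the groups taken after 1 day, CsGL1 differed by 0.84 ± 0.34 SE on the log2 scale between inhibited and pollinated ovaries, which almost met at normalized counts of 61.0 in inhibited replicate 2 and 60.9 in pollinated replicate 1 (0.11 to 1.57, edgeR adjusted p = 0.134). The value became 0.36 when inhibited replicate 1 was left out and 0.21 when the fit included the second index, but 1.95 without the 4 libraries with the highest unassigned share, where pollinated replicate 2 and inhibited replicate 1 are the only ovaries of their groups (edgeR adjusted p = 0.0328). That last value compares the highest with the lowest ovary for CsGL1, and each is assumed to vary like the ovaries of the other groups. Between inhibited and unpollinated ovaries the log2 fold change was 0.55 ± 0.33 SE (-0.18 to 1.27, edgeR adjusted p = 0.277), and 0.36 within the libraries that share an index form. It was 0.07 without inhibited replicate 1, 0.88 without inhibited replicate 2 and 0.94 without the 4 libraries with the highest unassigned share. Pollinated and unpollinated ovaries gave -0.29 ± 0.31 SE (-0.97 to 0.38, edgeR adjusted p = 0.514), and 0.14 within the other form. This value was -1.0 without those 4 libraries and ran from -0.49 to -0.01 with 1 ovary left out. In order of the mean, CsGL1 stood highest in anthesis, then inhibited, then unpollinated and then pollinated ovaries, and no neighbours in this order differed past the threshold.

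CsTTG1 is the WD-repeat protein of the set, related to Arabidopsis TTG1, and in cucumber it promotes the start of fruit spines. Normalized counts of CsTTG1 were 535 and 488 in inhibited ovaries, 528, 544 and 545 in pollinated ovaries, 533, 480 and 548 in unpollinated ovaries and 707, 602 and 583 in anthesis ovaries. The 8 ovaries taken after 1 day all lay below the 3 anthesis ovaries and overlapped with each other. Taken by group, pollinated ovaries lay entirely below anthesis for 19.5% of all genes tested, unpollinated for 25.9% and inhibited for 21.7%. The share of genes with all 8 below was not counted. The group means of CsTTG1 were 512 ± 33.2 in inhibited (SD, n = 2), 539 ± 9.30 in pollinated and 520 ± 35.2 in unpollinated ovaries (SD, n = 3 each), against 631 ± 67.1 at anthesis (SD, n = 3). The highest library had 1.47 times the lowest, against 2.54 times for CsGL3 and 3.85 times for CsGL1. These ratios take no account of the far fewer reads of CsGL1.

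The fall of CsTTG1 since anthesis was small and passed the threshold in unpollinated ovaries only, at a log2 fold change of -0.28 ± 0.09 SE or 82.5% of the anthesis mean of normalized counts (95% interval -0.48 to -0.07, edgeR adjusted p = 0.0362). With CsGL3, 2 of the 3 tested genes were thus called lower in unpollinated than in anthesis ovaries, where 35.7% of all genes tested were called in either direction and 18.1% of all genes tested were called lower. Pollinated ovaries had 85.5% of the anthesis mean (-0.22 ± 0.09 SE, -0.43 to -0.02, edgeR adjusted p = 0.12), and inhibited ovaries 81.1% (-0.30 ± 0.11 SE, -0.53 to -0.06, edgeR adjusted p = 0.102). The call in unpollinated ovaries was lost without anthesis replicate 1 (-0.19, edgeR adjusted p = 0.176), without unpollinated replicate 1 (-0.29, edgeR adjusted p = 0.0562) or 2 (-0.23, edgeR adjusted p = 0.14), within the libraries of 1 index form (-0.24, edgeR adjusted p = 0.316) and under 3 other settings. Between the groups taken after 1 day, the 95% intervals of the log2 fold change were -0.15 to 0.26 for pollinated against unpollinated, -0.25 to 0.21 for inhibited against unpollinated and -0.30 to 0.16 for inhibited against pollinated ovaries (edgeR adjusted p = 0.709, 0.929 and 0.731).

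Lower values since anthesis in the unpollinated ovaries were shared by all 3 measured genes, whose groups did not overlap there. Of all genes tested, 25.9% had unpollinated ovaries entirely below anthesis ovaries. In pollinated ovaries CsGL1 and CsTTG1, but not CsGL3, lay entirely below anthesis, as did 19.5% of all genes tested. In inhibited ovaries CsTTG1 alone did so, beside 21.7% of all genes. All of these comparisons use the same anthesis libraries. Of these differences, edgeR called only those of CsGL3 and CsTTG1 in unpollinated ovaries, and that of CsGL1 there was not called (edgeR adjusted p = 0.138). The separation of CsGL1 rests on 3 anthesis values whose closeness is no measure of the spread between ovaries.

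Tu encodes a C2H2 zinc finger protein required for the warts of cucumber fruit, and cultivars with smooth, non-warty fruit are known to lack the gene. It had 0 reads in each of the 2 inhibited, 3 pollinated, 3 unpollinated and 3 anthesis ovaries. A count of 0 allows a level of up to 0.113 to 0.165 CPM (counts scaled to a common library total) in a single library, taken as 3 reads of its total, and up to 0.0117 CPM over the 257425283 gene reads of all 11 libraries, as far as counting error goes. The 10.8 to 24.8% of a library's reads that were assigned to no single gene are not covered by these limits. The lowest count of CsGL1, the least read of the other genes, was 29. Tu was not alone in this, since 1330 of the 23248 genes, or 5.72%, had no read in any library. The identifiers next in number on both sides were read in every ovary, Csa5G577340 with 564 to 957 reads and Csa5G577360 with 5708 to 9410 reads; they were chosen after the values were seen, and the files give no positions. Whether Elem Female bears warts or carries the gene is not given in the sources used here.

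Whether the 3 measured regulators followed a common course was not tested. Over the 11 libraries the Pearson correlation of log2 CPM was 0.41 between CsGL1 and CsGL3, 0.35 between CsGL1 and CsTTG1 and 0.25 between CsGL3 and CsTTG1, given as descriptions over libraries that share groups. Among the 14447 other genes ranked, 13.1% were more like CsGL1 than CsGL3 was, and 27.6% were more like CsGL3 than CsGL1 was. Likewise, 16.6% were more like CsGL1 than CsTTG1 was, and 24.1% were more like CsTTG1 than CsGL1 was. For CsGL3 and CsTTG1, 36.7% were more like CsGL3 than CsTTG1 was, and 32.8% were more like CsTTG1 than CsGL3 was. Ratios within a library do not depend on library size and are given as descriptions, without a share over other genes. The log2 ratio of CsGL3 to CsTTG1, relative to its anthesis mean, was 0.36 and 0.69 in inhibited ovaries, -0.03, 0.09 and -0.10 in pollinated ovaries and -0.78, -0.12 and -0.53 in unpollinated ovaries, with -0.01, -0.24 and 0.26 in the anthesis ovaries themselves. Both inhibited ovaries lay above all others in this ratio; both carried the same form of the second index, and with the index in the fit the log2 fold change of CsGL3 in inhibited ovaries was 0.04 against pollinated and -0.20 against anthesis ovaries. The log2 ratio of CsGL1 to CsGL3 was 0.15 and -0.85 in inhibited ovaries, -0.25, -1.54 and -0.39 in pollinated ovaries, -0.02, 0.12 and 0.26 in unpollinated ovaries and -0.11, 0.23 and -0.11 in anthesis ovaries. All 3 pollinated ovaries lay below all unpollinated and anthesis ovaries in this ratio, by a small margin. The nearest values were -0.25 in pollinated replicate 1 and -0.11 in anthesis replicates 1 and 3. CsGL1 had 49 reads in that pollinated ovary, a counting error of 14.3%. The separation was not tested, and the share of other genes with such a separation was not counted.

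Genes with the most similar course were sought by the Pearson correlation of log2 CPM over the 11 libraries, among genes with a mean of at least 5 CPM. They are given by identifier only, since nothing in the sources used here annotates them. For CsGL3 the closest was Csa1G470390, at a correlation of 0.984. It stood at 242 ± 8.44 CPM in inhibited (SD, n = 2), 224 ± 2.63 CPM in pollinated, 198 ± 7.34 CPM in unpollinated and 237 ± 11.7 CPM in anthesis ovaries (SD, n = 3 each). The order of these means was that of CsGL3, over a narrower range on the log2 scale. Csa1G470390 was picked for its likeness in these same libraries, so the shared order is no separate result. Csa5G650640 (0.942) and Csa5G610430 (0.937) followed. Csa5G610430 stood at 31.8 ± 3.48 CPM in inhibited (SD, n = 2), 20.5 ± 0.251 CPM in pollinated, 16.0 ± 1.31 CPM in unpollinated and 27.1 ± 5.44 CPM in anthesis ovaries (SD, n = 3 each).

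The closest gene to CsGL1 was Csa4G286950 (correlation 0.927), at 11.2 ± 3.10 CPM in inhibited (SD, n = 2), 5.45 ± 1.37 CPM in pollinated, 7.09 ± 1.5 CPM in unpollinated and 13.4 ± 2.94 CPM in anthesis ovaries (SD, n = 3 each). Csa1G288020 (0.921) and Csa3G003480 (0.898) came next. For CsTTG1 the closest were Csa3G126160 (0.903), Csa6G000680 (0.881) and Csa1G659600 (0.877). Csa3G126160 stood at 28.2 ± 2.20 CPM in inhibited (SD, n = 2), 32.1 ± 0.773 CPM in pollinated and 30.7 ± 0.974 CPM in unpollinated ovaries, against 36.1 ± 2.05 CPM at anthesis (SD, n = 3 each). These lists change with the libraries used: when 1 library was left out, between 0 and 3 of the 3 genes named for CsGL1, and between 1 and 3 of those named for CsGL3 and for CsTTG1, stayed among the 3 most alike. None stayed for CsGL1 without pollinated replicate 2.

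**Figure D3:**
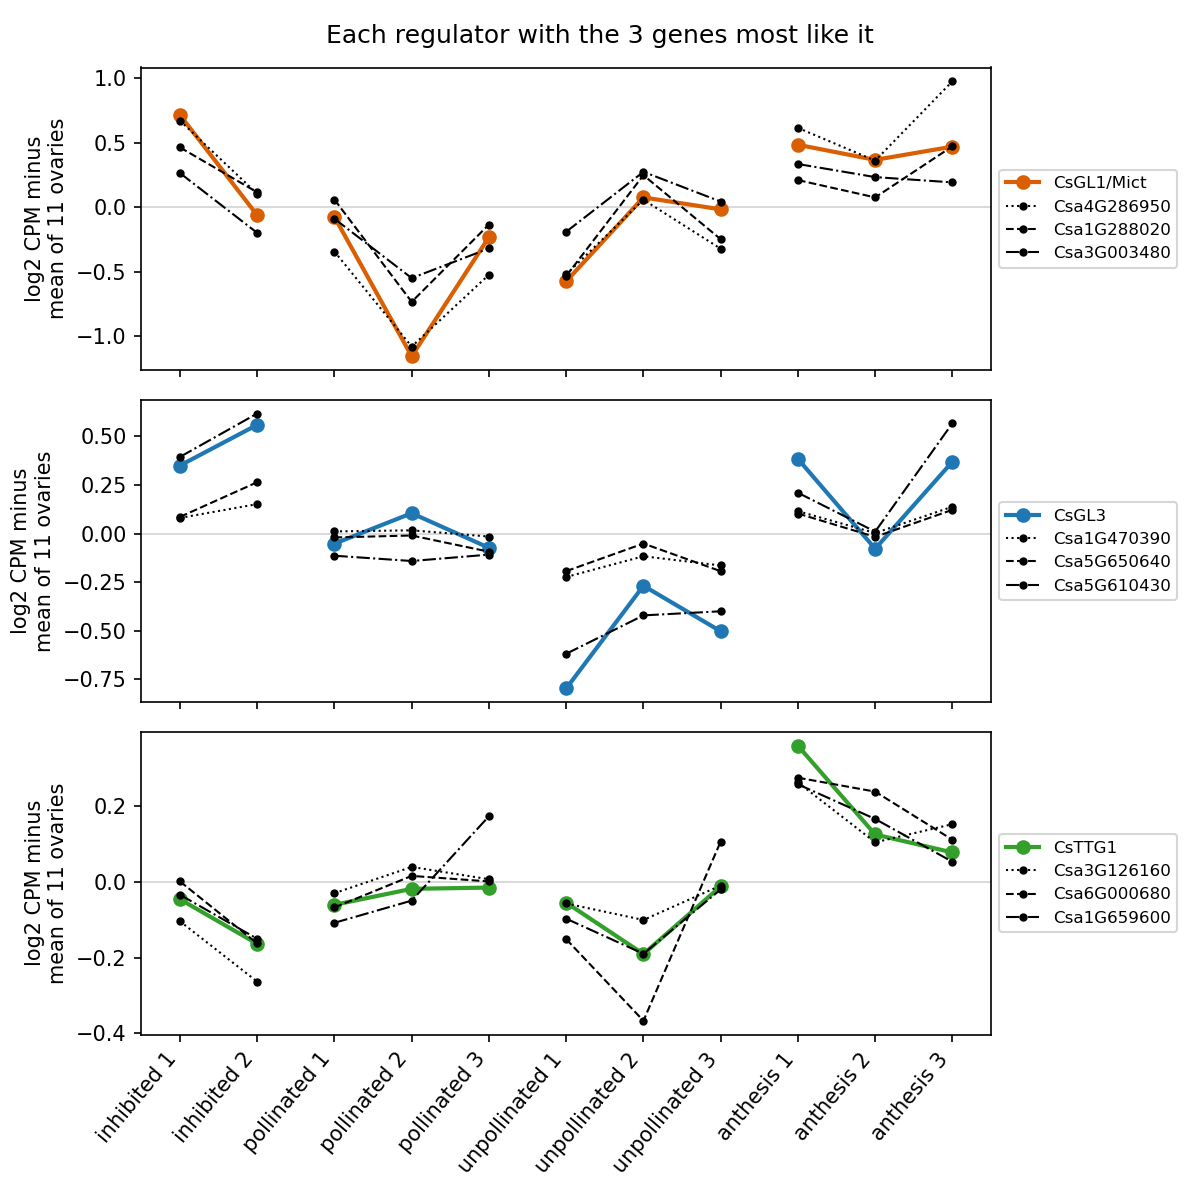
Log2 CPM minus its mean over the 11 ovaries (y axis) in each ovary (x axis, by group), for each regulator (thick coloured line) and the 3 genes most like it (thin black lines); lines join ovaries of 1 group only. The unpollinated ovaries are the lowest for CsGL3, pollinated replicate 2 is the lowest for CsGL1, and the anthesis ovaries are the highest for CsTTG1.

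**Figure D4:**
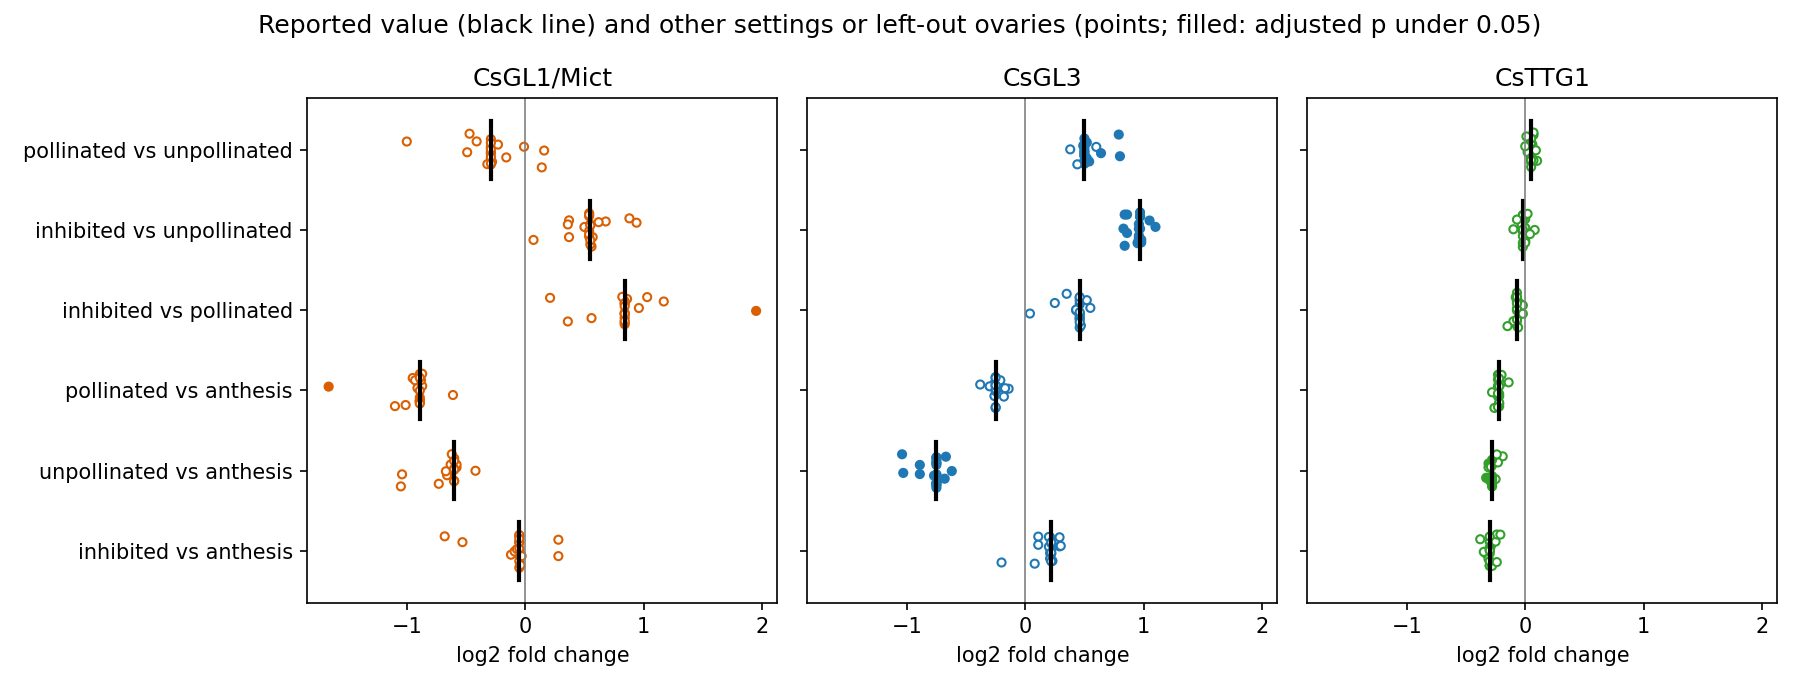
Log2 fold changes (x axis) of CsGL1, CsGL3 and CsTTG1 in the 6 comparisons (y axis) as reported (black line) and under the other settings or with 1 ovary left out (points, spread vertically only to be visible; filled where the adjusted p is under 0.05). The points of CsGL3 for inhibited against unpollinated and for unpollinated against anthesis ovaries are all filled, while those of CsGL1 for inhibited against pollinated ovaries run from 0.21 to 1.95.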

How the data were processed

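RNA-seq of 11 single cucumber ovaries was analysed from the tables the authors deposited. STAR 2.5.0a, HTSeq 0.6.1p1 and DESeq2 are listed in the submitters' processing notes. No source used here states the genome build, the annotation or the strand setting. How reads of overlapping or near-identical genes were assigned, or whether they were left unassigned, is therefore not known here. The deposited raw counts are whole-number read counts per gene; 5 lines that name no gene (10.8 to 24.8% of a library's reads) were left out. The deposited normalized signal equals the counts divided by 1 factor per library (largest relative difference 5.1e-10), and is printed as normalized counts. CPM use TMM-adjusted library sizes. Groups come from the labels, and replicate numbers only name ovaries. Within groups, the chi-square statistic per gene was 10.05 or more, so no pair within a group was a duplicate; pairs across groups were not compared.

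Counts were filtered with filterByExpr and fitted with edgeR 4.0.16 (glmQLFit, glmQLFTest, R 4.3.3), with 1 mean per group and TMM factors, and p-values were adjusted over 18679 genes; the pipeline was tested on simulated data. The SE is the log2 fold change divided by the square root of F. DESeq2 1.42.0, limma 3.58.1 on log2(normalized count + 1) and the other alternatives are in the closing section. Likeness is the correlation of log2 CPM (prior count 2), and the 3 most alike genes per regulator were named by a fixed rule. The members, tests and lists were chosen with earlier results of these data known. Other trichome genes and cell type markers could not be tested, since 0 identifiers matched the 23999 reference genes.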

Additional observations from a re-analysis of the deposited data

How the results depend on the processing

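The calls of CsGL3 in inhibited against unpollinated and in unpollinated against anthesis ovaries held under every alternative run, at log2 fold changes of 0.83 to 1.10 and -1.04 to -0.62. For pollinated against unpollinated ovaries CsGL3 ran from 0.38 to 0.64 with 1 ovary left out, was 0.80 when the fit included the second index, and was 0.60 and not called without the 4 libraries with the highest unassigned share. Without those 4 libraries (1 inhibited, 1 pollinated, 2 unpollinated and 3 anthesis ovaries left, the spread coming from the groups with more than 1), CsGL1 was called at 1.95 for inhibited against pollinated, which sets its highest against its lowest ovary, and at -1.66 for pollinated against anthesis ovaries, its adjusted p among the 4 groups was 0.0178, and its value for inhibited against anthesis ovaries turned to 0.28; CsTTG1 turned to 0.08 for inhibited against unpollinated ovaries and lost its call since anthesis in unpollinated ovaries (-0.31). DESeq2 called CsGL3 at 0.46 for inhibited against pollinated ovaries, CsGL1 at -0.89 for pollinated against anthesis ovaries, and CsGL1 among the 4 groups (adjusted p = 0.0359). With only the compared groups in the fit, CsGL3 was called at 0.46 for inhibited against pollinated ovaries and CsTTG1 was no longer called at -0.28 for unpollinated against anthesis ovaries. With that index in the fit, CsGL1 turned to 0.16 for pollinated against unpollinated ovaries, CsGL3 to -0.20 for inhibited against anthesis ovaries, CsGL1 was -0.68 for inhibited and -1.05 for unpollinated against anthesis ovaries, and CsTTG1 lost its call in unpollinated against anthesis ovaries (-0.25); within the libraries of 1 index form, chosen after seeing the data, the first of these was 0.14 and that of CsTTG1 -0.24. With 1 ovary left out, CsTTG1 ran from -0.33 to -0.19 for unpollinated against anthesis and from -0.10 to 0.04 for inhibited against unpollinated ovaries. In the same way CsGL1 ran from -0.53 to 0.28 for inhibited against anthesis and from -1.10 to -0.61 for pollinated against anthesis ovaries, and from 0.07 to 0.88 for inhibited against unpollinated ovaries, with an adjusted p among the 4 groups of 0.0392 to 0.139. Of the 3 genes named as most like CsGL1, 1 stayed with the Spearman correlation; with 1 ovary left out, 0 to 3 stayed for CsGL1, and 1 to 3 for CsGL3 and for CsTTG1. The index term rested on unpollinated replicate 1 against replicates 2 and 3, since no other group held both forms. Apart from these settings, the cause of each change was not tested. The counts of all genes called moved more, at their lowest: 5651 for pollinated against unpollinated ovaries became 1883 with the index included, 3669 for inhibited against unpollinated became 1785 without 1 ovary, 2120 for inhibited against pollinated became 522, 3062 for pollinated against anthesis became 790, 6672 for unpollinated against anthesis became 1521 and 1376 for inhibited against anthesis became 17. No paired analysis was possible because the labels give no replicate numbers that groups share. Depth limits CsGL1 (29 to 114 reads per library) most.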
